A study of Mus musculus with 11 samples.

Results

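Group 2 innate lymphoid cells (ILC2s) from the mouse large intestine that had received IL-25 were compared directly with ILC2s that had received the neuropeptide adrenomedullin 2 (ADM2). The comparison used 6 of the 11 RNA-seq libraries of the study, chosen by their labels: 3 IL-25 libraries and 3 ADM2 libraries. All cells were sorted ILC2s of C57BL/6 mice carrying no mutation (wild type), and every culture, the vehicle one included, held IL-7 and IL-2, each at 100 ng/ml, and lasted 3 h. IL-25 was added at 100 ng/ml and ADM2 at 0.4 µg/ml. The other libraries were 3 of vehicle cells, which serve here as the baseline, and 2 of cells given both agents, which entered the gene filter, the estimate of spread and the principal components, but no comparison. The labels do not say whether libraries of 1 group came from separate mice, so the p-values rest on the spread between these libraries, part or all of which may be technical.

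IL-25 is an epithelial alarmin, released mainly by tuft cells, that binds a receptor made of IL-17RB and IL-17RA and signals through NF-kB and MAP kinases. ADM2, also called intermedin, belongs to the calcitonin gene-related peptide (CGRP) family and binds CALCRL joined to one of the RAMP proteins, a receptor that couples to Gs, raises cAMP and activates protein kinase A and the transcription factor CREB. ILC2s are tissue-resident lymphocytes known for secreting IL-5 and IL-13 in response to alarmins and for making the tissue-repair factor amphiregulin.

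The deposited gene counts summed to between 25809256 and 35445351 per library, and between 14837 and 15954 genes had a count. Levels are given below as CPM, the count of a gene scaled to library size after correction by the trimmed mean of M values (TMM), and they are not divided by gene length. All 12 ILC2 markers examined were detected, and their summed level was 17191 to 18513 CPM in IL-25 libraries and 9587 to 9878 CPM in ADM2 libraries. That sum includes Il5, Il13 and other genes that differed between the treatments. T cell markers summed to 142 to 173 CPM in IL-25 libraries and to 269 to 308 CPM in ADM2 libraries, and 1 of the 10, the T cell receptor constant gene Trbc1, was called lower, at a mean of 149 CPM in IL-25 and 273 CPM in ADM2 libraries. Of the CD3 chains, Cd3g had a mean of 5.13 CPM in IL-25 and 6.80 CPM in ADM2 libraries, Cd3e 0.977 and 1.52 CPM, and Cd3d 0.432 and 1.19 CPM, and none of the 3 was called. Epithelial markers summed to 144 to 170 CPM in IL-25 and 81.6 to 89.8 CPM in ADM2 libraries, nearly all of it Epcam. Stromal and endothelial markers summed to 407 to 494 CPM in IL-25 and 181 to 250 CPM in ADM2 libraries, most of the difference being in Pecam1, at 307 and 92.0 CPM. B and plasma cell markers, among them immunoglobulin kappa (Igkc), summed to 1147 to 1387 CPM in IL-25 and 1103 to 1310 CPM in ADM2 libraries. Of these 8, 1 was called lower, Cd79b, at a mean of 6.62 CPM in IL-25 and 14.1 CPM in ADM2 libraries. ILC3 markers summed to 1169 to 1355 CPM in IL-25 and 424 to 468 CPM in ADM2 libraries, nearly all of it the cytokine Il22, while the IL-23 receptor gene Il23r stood at a mean of 4.14 CPM in IL-25 and 2.88 CPM in ADM2 libraries. NK cell and ILC1 markers summed to between 24.1 and 28.7 CPM over the 6 libraries. Of these 7, 1 was called higher, Ifng, at a mean of 4.65 CPM in IL-25 and 2 CPM in ADM2 libraries. Macrophage and dendritic cell markers summed to 6.29 to 10.7 CPM in IL-25 and 16.5 to 21.4 CPM in ADM2 libraries, and 1 of the 9, Cd14, was called lower, at 2.5 and 9.9 CPM. Of the mast cell and eosinophil markers, Epx, Mcpt2, Ms4a2 and Siglecf were at 0 in all 6 libraries, as were Cxcr2 and Retnlg of the neutrophil markers. The part of these other cells in the results was not tested. In bulk RNA of this kind, fewer cells of a type and less RNA per cell cannot be told apart.

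The treatments separated the libraries along the first principal component, which held 21.3% of the variance. The IL-25 libraries lay at 65.38, 41.96 and 67.25 on it, and the ADM2 libraries at −46.26, −42.56 and −52.26. The vehicle libraries lay between the groups, from −9.308 to −2.984, so on this component the IL-25 and ADM2 libraries stood on opposite sides of it. On the second component, with 15% of the variance, the vehicle libraries lay apart from both, at 40.5 to 47.53, and the 6 treated libraries together between −9.738 and 1.189.

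**Figure D1:**
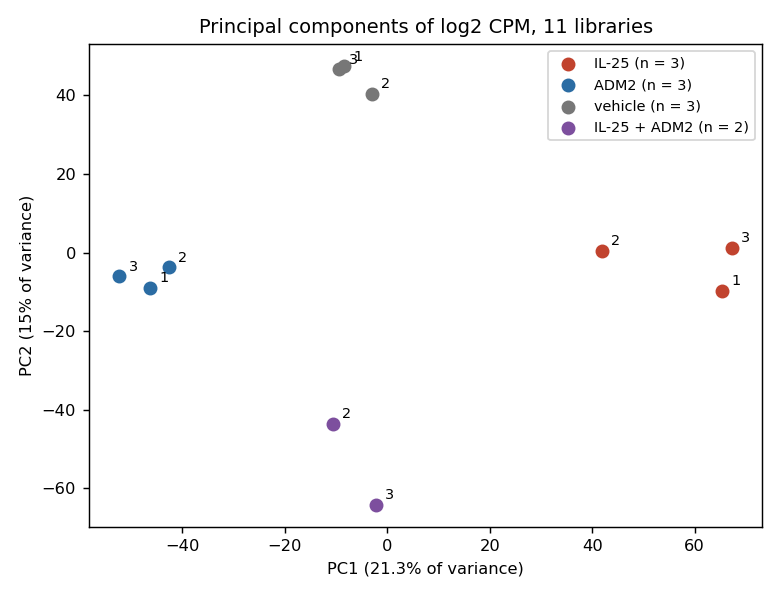
First 2 principal components of log2 CPM over the tested genes, 1 point per library, with the share of variance on each axis. The 3 IL-25 libraries lie between 41.96 and 67.25 on the first component, the 3 ADM2 libraries between −52.26 and −42.56, and the vehicle libraries in between, while on the second component the vehicle libraries lie above both.

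Of 15028 genes tested, 4687 (31.2%) differed between IL-25 and ADM2 by edgeR's quasi-likelihood test with an adjusted p (Benjamini-Hochberg) under 0.05, the rule by which genes are called below. In IL-25 libraries 2425 genes (16.1%) were higher and 2262 (15.1%) lower than in ADM2 libraries. A difference of at least 2-fold that also passed the test was found for 1556 genes (10.4%), of which 773 were higher and 783 lower. The median log2 fold change over all genes was −0.02, and the median standard error was 0.19. Against vehicle, IL-25 raised 13% and lowered 10.4% of the tested genes, and ADM2 raised 7.39% and lowered 7.43%. Values against vehicle are given below side by side, and both comparisons use the same 3 vehicle libraries. Beside the counts of a gene list stands the share of its members called, to be read against the 31.2% of all genes.

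**Figure D2:**
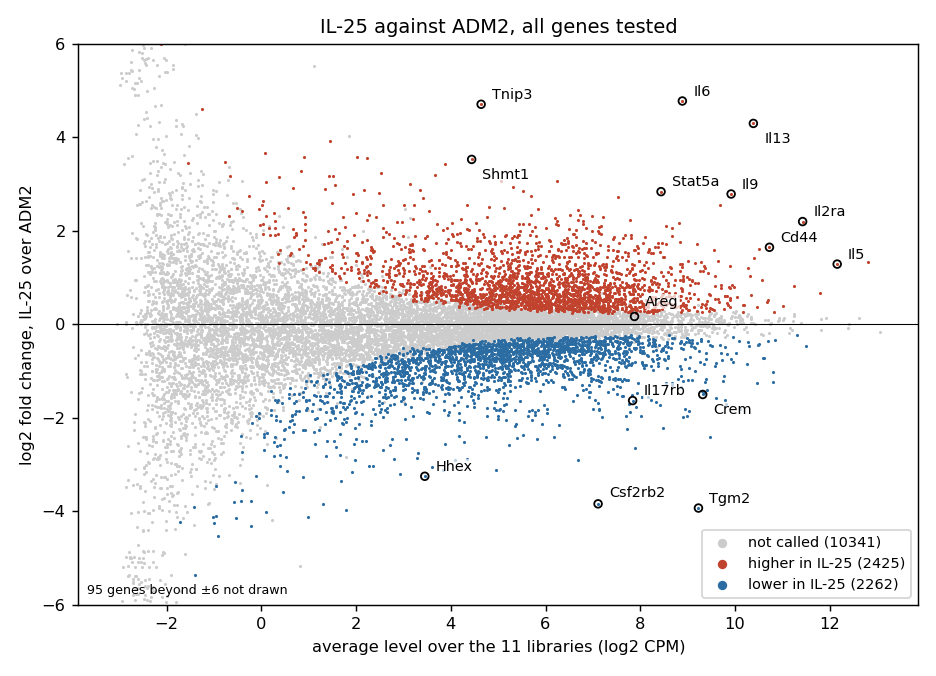
Log2 fold change of IL-25 over ADM2 (vertical axis) against the average level in log2 CPM (horizontal axis), 1 point per gene, coloured by whether the gene was called higher (2425), lower (2262) or not called. Among the genes marked by name, Il6, Tnip3 and Il13 stand at the top and Tgm2 and Csf2rb2 at the bottom; 95 genes lie beyond the vertical axis and are not drawn.

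Among genes whose groups did not overlap and whose level averaged 2 or more in log2 CPM, the largest differences in favour of IL-25 lay in the cytokines Il6 and Il13 and in the NF-kB feedback gene Tnip3. Il6, on chromosome 5, is a pleiotropic inflammatory cytokine and had 1128, 1042 and 1122 CPM in IL-25 libraries, 41.9, 40.9 and 37.0 CPM in ADM2 libraries and 56.7, 75.4 and 67.4 CPM in vehicle libraries. Il13, on chromosome 11, drives goblet cell mucus and smooth muscle responses, and had 2834, 2644 and 3078 CPM in IL-25 libraries, 156, 135 and 143 CPM in ADM2 libraries and 270, 302 and 272 CPM in vehicle libraries. For both genes the IL-25 libraries stood far above the vehicle range and the ADM2 libraries below it, with no overlap. Il6 was 27.5-fold higher in IL-25 than in ADM2 libraries (log2 fold change 4.78 ± 0.13 SE, edgeR adjusted p = 2.72e-12), and Il13 was 19.7-fold higher (4.30 ± 0.10 SE, edgeR adjusted p = 8.08e-13). Tnip3, which encodes an A20-binding inhibitor of NF-kB, had 75.8, 57.4 and 64.7 CPM in IL-25 libraries, 2.82, 1.94 and 2.75 CPM in ADM2 libraries and 3.57, 2.57 and 4.93 CPM in vehicle libraries. The lowest IL-25 library was far above the highest of the other 6, and the log2 fold change was 4.71 ± 0.23 SE (edgeR adjusted p = 1.84e-09). Other genes among the 15 with the largest increases were the one-carbon enzyme Shmt1, the matrix metalloprotease Mmp10, the iron-regulating hormone gene Hamp (which has a close copy, Hamp2), the carbonic anhydrase Car13, the scavenger receptor Stab1, the membrane-cytoskeleton protein Marcks and the growth factor Pdgfb. Car13 averaged 163 ± 5.86 CPM in IL-25 and 19.4 ± 3.49 CPM in ADM2 libraries (SD, n = 3 each), and Marcks 91.9 ± 5.84 CPM and 12 ± 2.98 CPM. The remaining ones, Lad1, Nkain1, Cdk5r1, Nhlrc1 and Dnah12, had log2 fold changes between 2.86 and 3.57.

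In the opposite direction, and with the same limits, the 15 largest differences included Tgm2 and the paired cytokine receptor genes Csf2rb2 and Csf2rb. Tgm2, on chromosome 2, encodes the protein-crosslinking enzyme transglutaminase 2 and had 95.8, 100 and 101 CPM in IL-25 libraries, 1516, 1621 and 1377 CPM in ADM2 libraries and 126, 116 and 120 CPM in vehicle libraries. The IL-25 libraries lay below the vehicle range and the ADM2 libraries more than 10-fold above it. Tgm2 was 15.2-fold lower in IL-25 than in ADM2 libraries (log2 fold change −3.93 ± 0.09 SE, edgeR adjusted p = 8.08e-13). Csf2rb encodes the signalling beta chain shared by the IL-3, IL-5 and GM-CSF receptors, and Csf2rb2 a beta chain of the IL-3 receptor only. Csf2rb2 averaged 22.7 ± 4.11 CPM in IL-25, 324 ± 15.7 CPM in ADM2 and 26.3 CPM in vehicle libraries, and Csf2rb 7.68 ± 1.38, 66.1 ± 4.16 and 11.8 CPM. These neighbouring genes are near-identical in sequence, so how reads were split between them is uncertain. Also among the 15 with the largest decreases were the homeobox gene Hhex, the lipoprotein receptor Vldlr, the orphan receptor Gpr35, the C-type lectin-like receptor Cd93, the adaptor Sla2, the Wnt receptor Fzd4, the magnesium transporter gene Cnnm2 and the cannabinoid receptor Cnr2. Cd93 averaged 30.6 ± 7.79 CPM in IL-25, 230 ± 32.0 CPM in ADM2 and 60.2 CPM in vehicle libraries, and Cnnm2 74.4 ± 17.5, 469 ± 23.5 and 117 CPM. The other 4 of these 15 were Hmga2-ps1, Eml1, Rnf144b and Ncald, with log2 fold changes between −3.20 and −2.75. Strand use in the counting is not given, and of the genes named here and below Acvr2a, Akap1, Akap12, Bcl2, Bid, Ccnd2, Ccnd3, Cd44, Crem, Csf2, Csf2rb, Csf2rb2, Cxcr6, Dnah12, Dnajb4, Dusp6, Eml1, Fzd4, Gata3, Gmps, Gpr35, Hif1a, Hmga2-ps1, Hspa5, Hspd1 (with Hspe1), Ifih1, Il2ra, Il6, Ldha, Lpar6, Ncald, Nfkb1, Odc1, Pdgfb, Prps2, Psph, Ramp3, Rnf144b, Rpl4, Slc43a2, Smad3, Socs2, Stab1, Tnfrsf18 and Vldlr overlap other annotated genes, so their counts may hold reads of these.

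Type 2 cytokines and other secreted effectors did not move as a block. Of the 24 members tested, 13 were higher and 7 lower in IL-25 than in ADM2 libraries (83.3% called), with a median log2 fold change of 0.70. Il5, the eosinophil growth factor, had 5321, 4436 and 5281 CPM in IL-25 libraries, 2103, 2079 and 1947 CPM in ADM2 libraries and 495, 589 and 579 CPM in vehicle libraries. All 6 treated libraries stood above vehicle, and IL-25 exceeded ADM2 by 2.45-fold (log2 fold change 1.29 ± 0.09 SE, edgeR adjusted p = 5.13e-08). Il9, a mast cell and ILC2 growth factor, had 1647, 1319 and 1606 CPM in IL-25 libraries, 273, 202 and 185 CPM in ADM2 libraries and 68.5, 76.0 and 75.8 CPM in vehicle libraries, in the same order as Il5 and with a 6.93-fold difference. Csf2, which encodes GM-CSF, had 1567, 1357 and 1523 CPM in IL-25 libraries, 254, 255 and 245 CPM in ADM2 libraries and 180, 235 and 211 CPM in vehicle libraries. The ADM2 libraries stood just above the vehicle range for Csf2, and IL-25 exceeded them 5.90-fold. Il13 thus differed from these 3 genes in its position against vehicle: it was lower in ADM2 than in vehicle libraries (log2 fold change −0.96, edgeR adjusted p = 2.4e-06), while its log2 fold change for IL-25 over vehicle was 3.34.

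The balance between Il13 and Il5 counts therefore depended on the agent. The ratio of Il13 to Il5 CPM, which is not corrected for gene length and so is read only between groups, was 0.533, 0.596 and 0.583 in IL-25 libraries, 0.0743, 0.0647 and 0.0733 in ADM2 libraries, and 0.545, 0.513 and 0.470 in vehicle libraries. The IL-25 ratios lay close to the vehicle ratios, and the ADM2 ratios lay far below both. The effectors lower in IL-25 than in ADM2 libraries included Il2, the T cell growth factor, with 5.13, 7.88 and 3.52 CPM in IL-25, 33.2, 22.4 and 30.8 CPM in ADM2 and 4.48, 6.06 and 3.19 CPM in vehicle libraries. The ADM2 libraries stood above the other 6 for Il2, the IL-25 range overlapped that of vehicle, and the log2 fold change of IL-25 over ADM2 was −2.39 ± 0.27 SE. Metrnl, a secreted meteorin-like factor, averaged 106 CPM in IL-25, 307 CPM in ADM2 and 130 CPM in vehicle libraries, with a log2 fold change of −1.53. Calca, the gene for CGRP itself, had 628, 478 and 569 CPM in IL-25, 1088, 885 and 987 CPM in ADM2 and a mean of 499 CPM in vehicle libraries. Its log2 fold change was −0.82 ± 0.13 SE (edgeR adjusted p = 0.000154). The cytokine Osm and the RANK ligand gene Tnfsf11 were also lower in IL-25, with log2 fold changes of −0.73 and −0.75.

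**Figure D3:**
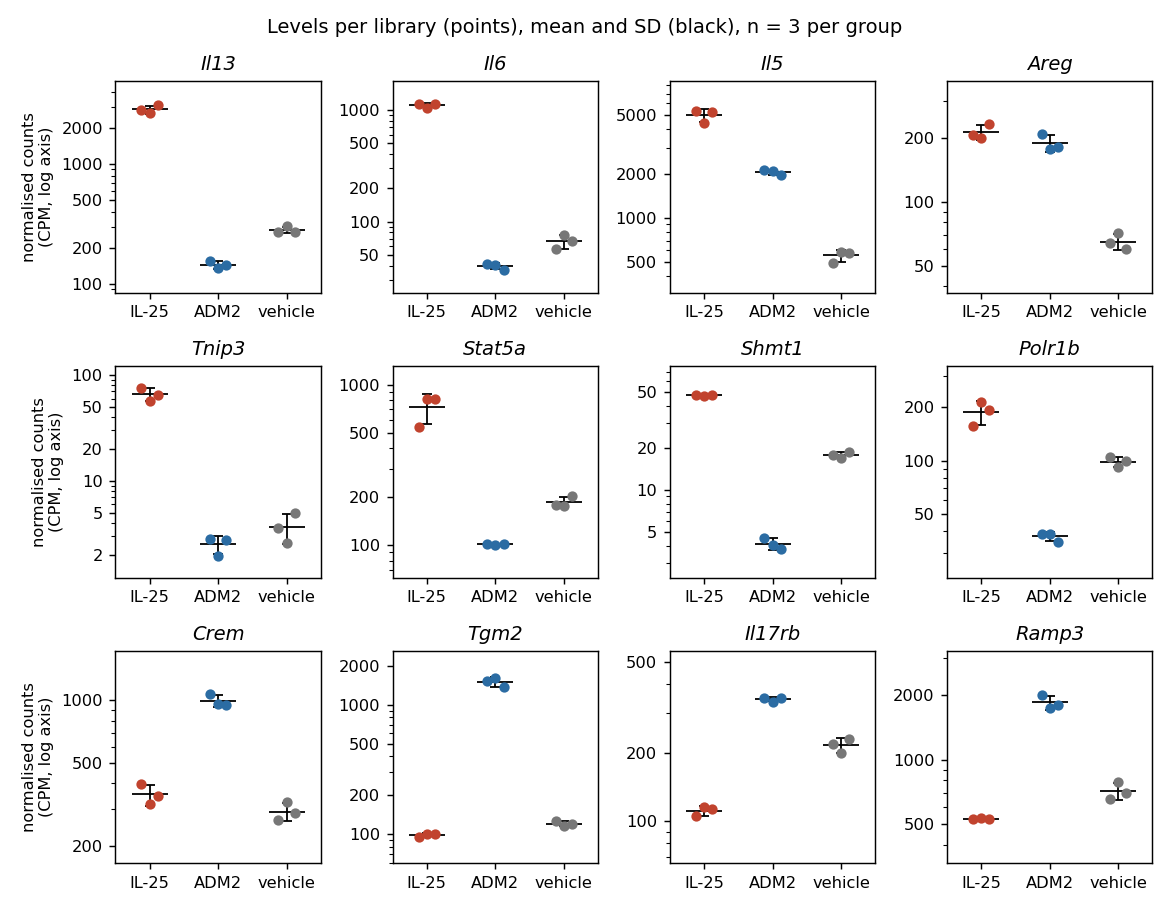
Levels in CPM on a log axis of 12 genes in each IL-25, ADM2 and vehicle library (points), with the group mean as a bar and its SD as the error bar. Il13, Il6, Tnip3, Stat5a, Shmt1 and Polr1b stand highest in IL-25 libraries, Crem, Tgm2, Il17rb and Ramp3 stand highest in ADM2 libraries, and the Areg points of IL-25 and ADM2 libraries overlap above those of vehicle.

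Areg, the gene for the epidermal growth factor receptor ligand amphiregulin, was the 1 member of this list whose difference was bounded within 1.5-fold. It had 207, 199 and 232 CPM in IL-25 libraries, 209, 177 and 182 CPM in ADM2 libraries and 64.3, 71.1 and 59.8 CPM in vehicle libraries. The treated groups overlapped and all 6 treated libraries stood above vehicle. The log2 fold change of IL-25 over ADM2 was 0.17 ± 0.11 SE, with a 95% interval of −0.06 to 0.39 (edgeR adjusted p = 0.269). The log2 fold changes over vehicle were 1.71 for IL-25 and 1.54 for ADM2. By the same bound, the 95% interval within 1.5-fold in either direction, 189 of the 616 tested genes in the lists (30.7%) had close levels, against 3775 of all 15028 (25.1%). They included 29 of 30 ribosomal protein genes and 22 of 26 genes of oxidative phosphorylation, but 2 of 34 in the list of MYC and ribosome biogenesis and none of the 9 in the CGRP and adrenomedullin family. Several inducible genes were close in level under the 2 agents and above vehicle. The A20 ubiquitin-editing enzyme gene Tnfaip3 averaged 1833 CPM in IL-25, 1814 CPM in ADM2 and 863 CPM in vehicle libraries, the AP-1 subunit Junb 2307, 2427 and 1348 CPM, and the endoplasmic reticulum chaperone Hspa5 2358, 2545 and 1360 CPM.

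The promoter windows of Il13, Il6 and Areg each run from 250 bases before to 50 bases after the annotated start (RefSeq, GRCm38.p6). These genes were chosen after their values were seen. Their windows are printed because each holds a match to an NF-kB or a CREB motif. Capitals mark GGATTTTCC, a match to the kB motif GGANTTTCC, in Il13 (chr11:53634653-53634952, minus strand) and in Il6 (chr5:30012864-30013163, plus strand), and TGACGTCA, the full cAMP response element (CRE), in Areg (chr5:91139349-91139648, plus strand).
Il13: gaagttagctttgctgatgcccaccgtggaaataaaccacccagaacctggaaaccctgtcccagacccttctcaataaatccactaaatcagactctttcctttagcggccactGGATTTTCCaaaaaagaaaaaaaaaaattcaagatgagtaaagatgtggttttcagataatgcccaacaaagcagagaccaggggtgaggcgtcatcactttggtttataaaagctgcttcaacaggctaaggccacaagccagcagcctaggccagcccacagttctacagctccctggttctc
Il6: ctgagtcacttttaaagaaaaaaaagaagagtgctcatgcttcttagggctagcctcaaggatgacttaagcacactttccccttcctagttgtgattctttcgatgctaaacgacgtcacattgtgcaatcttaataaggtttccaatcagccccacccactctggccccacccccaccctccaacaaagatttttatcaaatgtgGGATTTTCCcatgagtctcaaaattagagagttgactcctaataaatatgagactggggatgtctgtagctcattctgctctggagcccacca
Areg: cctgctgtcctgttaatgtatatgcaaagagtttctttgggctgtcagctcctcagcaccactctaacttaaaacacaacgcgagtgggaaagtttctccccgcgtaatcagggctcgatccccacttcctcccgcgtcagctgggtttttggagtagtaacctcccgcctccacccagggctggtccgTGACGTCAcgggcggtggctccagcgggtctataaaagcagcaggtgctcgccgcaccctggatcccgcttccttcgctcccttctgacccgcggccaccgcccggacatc
The kB match began 135 bases before the start in Il13 and 43 bases before it in Il6, and the CRE 61 bases before it in Areg. Searched on both strands, the kB motif was in 1.35% of all 14274 windows and the CRE in 2.93%. The kB motif was in 2.28% of windows of genes called at least 2-fold higher in IL-25 and in 0.919% of those called at least 2-fold lower. Among list genes, windows with a kB match included Icam1, higher in IL-25, and Dusp6 and Smad3, lower in IL-25. Those with a full CRE included Cycs, higher in IL-25, and Dusp1, lower in IL-25. The windows of Il13 and Il6 also held TGACG, a part of the CRE, on either strand, 45 and 135 bases before the start. These letters, not marked here, were in 29.7% of all windows. The matches are a description of letters and not evidence of binding.

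NF-kB subunits, targets and feedback genes were mostly higher in IL-25. Of the 29 members tested, 19 were higher and 2 lower than in ADM2 libraries (72.4% called), and the median log2 fold change was 0.63. Beside Tnip3, the dendritic and lymphoid activation marker Cd83 averaged 111 CPM in IL-25, 21.7 CPM in ADM2 and 23.1 CPM in vehicle libraries, with a log2 fold change of 2.35. Icam1, the ligand of the integrin LFA-1, had 284, 311 and 342 CPM in IL-25 libraries, 111, 102 and 103 CPM in ADM2 libraries and a mean of 151 CPM in vehicle libraries. Its groups did not overlap, and its log2 fold change was 1.57. The apoptosis inhibitor Birc3 was higher as well, at 549 CPM in IL-25, 251 CPM in ADM2 and 270 CPM in vehicle libraries. The members that did not pass the test include Tnfaip3, Nfkb1 and the atypical inhibitor Nfkbiz, whose log2 fold changes were 0.02, 0.14 and 0.12. Rel and Birc2 were called lower, with log2 fold changes of −0.47 and −0.29, but Rel lost its call in 4 of 20 alternative settings (without ADM2 replicate 2 or 3 or IL-25 replicate 1 or 3) and Birc2 in 13, among them the fits without any 1 of the ADM2 libraries, IL-25 replicate 2 or 3 or any 1 vehicle or combination library. Against vehicle, 25 members were higher and none lower under IL-25, and 8 were higher and 4 lower under ADM2.

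Targets of cAMP, CREB and its co-activators showed the opposite pattern. Of 29 tested members 2 were higher and 21 lower in IL-25 than in ADM2 libraries (79.3% called), with a median log2 fold change of −0.74. The list holds Tgm2 and, like the others, was chosen with earlier results of these data known, so its counts are a description. Crem, a cAMP-inducible repressor and modulator of CREB, had 397, 316 and 346 CPM in IL-25 libraries, 1075, 964 and 947 CPM in ADM2 libraries and 265, 324 and 287 CPM in vehicle libraries. The ADM2 libraries stood well above the rest, and the IL-25 range overlapped that of vehicle. Crem was 2.82-fold lower in IL-25 than in ADM2 libraries (log2 fold change −1.50 ± 0.11 SE, edgeR adjusted p = 8.15e-08). The AP-1 gene Fosb averaged 344 CPM in IL-25, 925 CPM in ADM2 and 324 CPM in vehicle libraries, and Rgs2, which accelerates GTP hydrolysis by G proteins, 127, 364 and 123 CPM. The kinase-anchoring protein Akap12 averaged 16.5, 84.9 and 18.1 CPM, and Odc1, the first enzyme of polyamine synthesis, 1034, 2443 and 767 CPM. Their log2 fold changes were −1.42, −1.52, −2.36 and −1.24, and Nfil3, a transcription factor needed for innate lymphoid development, was lower by −0.52. The 2 members higher in IL-25 were the orphan nuclear receptor Nr4a1 and the prostaglandin synthase Ptgs2. Nr4a1 had 1440, 1990 and 2014 CPM in IL-25, 1268, 1237 and 1412 CPM in ADM2 and a mean of 866 CPM in vehicle libraries, and its log2 fold change was 0.47 ± 0.11 SE (edgeR adjusted p = 0.00363). Against vehicle, 10 members of the list were higher and 1 lower under IL-25, and 26 were higher and none lower under ADM2.

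The CRE was in 3 of the 27 windows of this list (11.1%) and the shorter letters TGACG, which the CRE contains, in 63%, against 29.7% of all windows. The window of Dusp1, a MAP kinase phosphatase gene of the cAMP list chosen after its values were seen, is printed because it holds a full CRE, in capitals, 143 bases before the start (chr17:26508423-26508722, minus strand, RefSeq GRCm38.p6).
Dusp1: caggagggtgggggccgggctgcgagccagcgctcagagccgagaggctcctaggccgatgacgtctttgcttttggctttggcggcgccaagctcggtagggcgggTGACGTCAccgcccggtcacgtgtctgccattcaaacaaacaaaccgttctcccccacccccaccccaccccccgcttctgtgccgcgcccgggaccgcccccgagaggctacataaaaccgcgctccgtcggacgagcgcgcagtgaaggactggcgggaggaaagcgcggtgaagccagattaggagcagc
Dusp1 averaged 79.6 CPM in IL-25, 140 CPM in ADM2 and 70.2 CPM in vehicle libraries, with a log2 fold change of −0.81. The CRE was in 2.41% of windows of genes called at least 2-fold higher in IL-25 and in 1.44% of those called at least 2-fold lower. The letters TGACG were in 32.4% and 23% of these windows, so neither motif was more frequent on the side higher in ADM2. All these shares are given with no test.

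Some chains of the receptors of both agents differed between the groups. Il17rb, the IL-25-binding receptor chain, had 105, 116 and 113 CPM in IL-25 libraries, 349, 335 and 347 CPM in ADM2 libraries and 218, 199 and 230 CPM in vehicle libraries. The 3 groups did not overlap, with vehicle in the middle. Il17rb was 3.09-fold lower in IL-25 than in ADM2 libraries (log2 fold change −1.63 ± 0.09 SE, edgeR adjusted p = 4.19e-09), whereas its partner Il17ra averaged 231 CPM in IL-25, 144 CPM in ADM2 and 180 CPM in vehicle libraries, a log2 fold change of 0.69. Ramp3, the partner of CALCRL in an adrenomedullin receptor, had 526, 532 and 529 CPM in IL-25 libraries, 2013, 1748 and 1808 CPM in ADM2 libraries and 657, 787 and 701 CPM in vehicle libraries. The IL-25 libraries lay below and the ADM2 libraries above the vehicle range, and the difference was 3.51-fold (log2 fold change −1.81 ± 0.10 SE, edgeR adjusted p = 4.08e-09). Calcrl had 52.2, 42.0 and 37.7 CPM in IL-25 libraries, 26.3, 32.2 and 36.3 CPM in ADM2 libraries and a mean of 42.7 CPM in vehicle libraries. Its IL-25 libraries were just above the highest ADM2 library, and its call (log2 fold change 0.48 ± 0.14 SE, edgeR adjusted p = 0.0188) was lost without IL-25 replicate 1, without ADM2 replicate 1 or with upper-quartile scaling, at adjusted p of up to 0.0931. Ramp1, the CGRP receptor partner, averaged 7.86 CPM in IL-25, 10.3 CPM in ADM2 and 11.7 CPM in vehicle libraries and did not pass the test (log2 fold change −0.39, edgeR adjusted p = 0.231). In all, 1 of the 9 tested members of this family, Calcrl, was called higher and 2, Ramp3 and Calca, lower in IL-25, a share of 33.3% beside 31.2% of all genes.

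Receptors for other neural, lipid and purinergic signals were mostly lower in IL-25. Of 27 tested members 4 were higher and 14 lower (66.7% called), with a median log2 fold change of −0.66. Nmur1, the neuromedin U receptor by which enteric neurons activate ILC2s, had 22.6, 16.3 and 15.6 CPM in IL-25 libraries, 57.9, 62.1 and 50 CPM in ADM2 libraries and a mean of 66.3 CPM in vehicle libraries. Its log2 fold change was −1.64, with the ADM2 libraries near vehicle and the IL-25 libraries far below. The lysophosphatidic acid receptor Lpar6 averaged 60.3 CPM in IL-25, 213 CPM in ADM2 and 153 CPM in vehicle libraries, and the sphingosine-1-phosphate receptor S1pr4 52.1, 117 and 133 CPM. Among the 4 higher were the prostaglandin E2 receptors Ptger2 and Ptger4, which couple to Gs, at 118 and 176 CPM in IL-25, 28.3 and 110 CPM in ADM2 and 50.2 and 181 CPM in vehicle libraries. Phosphodiesterases, protein kinase A subunits and RGS proteins had 2 of 30 members higher and 13 lower in IL-25 (50% called), with a median of −0.48. Rgs1, which dampens chemokine receptor signalling, averaged 356 CPM in IL-25, 812 CPM in ADM2 and 360 CPM in vehicle libraries, and Rgs14 10.7, 41.3 and 31.7 CPM. The count higher was 1 without ADM2 replicate 1 or IL-25 replicate 2 or 3. The mitochondrial anchoring protein Akap1 went the other way, at 33.7 CPM in IL-25, 8.21 CPM in ADM2 and 23.4 CPM in vehicle libraries.

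Growth and ribosome production genes had the highest share of members called among the lists (94.1%). Of 34 tested members in the list of MYC and ribosome biogenesis, 32 were higher and none lower in IL-25 than in ADM2 libraries, all 32 by at least 2-fold, and the median log2 fold change was 1.60. Myc, the transcription factor that drives ribosome production, had 618, 750 and 753 CPM in IL-25 libraries, 190, 187 and 192 CPM in ADM2 libraries and 267, 259 and 258 CPM in vehicle libraries. Polr1b, the second-largest subunit of RNA polymerase I, had 157, 214 and 193 CPM in IL-25 libraries, 38.8, 38.5 and 34.9 CPM in ADM2 libraries and 105, 91.6 and 99.4 CPM in vehicle libraries. For both genes IL-25 lay above and ADM2 below the vehicle range. Myc was 3.73-fold higher in IL-25 than in ADM2 libraries (log2 fold change 1.90 ± 0.09 SE, edgeR adjusted p = 1.78e-09) and Polr1b 5.03-fold higher (2.33 ± 0.12 SE). Rrp9, a protein of the U3 small nucleolar complex that processes ribosomal RNA, averaged 244 CPM in IL-25, 60.9 CPM in ADM2 and 105 CPM in vehicle libraries. The paralog Mycn, at 35 CPM in IL-25, 37.8 CPM in ADM2 and 11.1 CPM in vehicle libraries, and the polymerase subunit Polr1c, at 87.1, 71.8 and 60.3 CPM, were the 2 members that did not pass. Against vehicle, 32 members were higher and none lower under IL-25 (median 0.81), and 1 was higher and 30 lower under ADM2 (median −0.76). The structural ribosomal proteins themselves were near equal (6.67% called), with 1 of 30 (Rpl4) higher, 1 (Rplp1) lower and a median of 0.12 between IL-25 and ADM2. Each of these calls was lost in some settings, Rpl4 with the replicate block, with upper-quartile scaling, with no filter on low counts and without ADM2 replicate 1, 2 or 3, IL-25 replicate 1 or 3 or vehicle replicate 3, and Rplp1 without ADM2 replicate 1 or IL-25 replicate 2 or 3.

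The window of Utp20, a component of the small-subunit processome chosen after its values were seen, is printed because it holds the E-box CACGTG that MYC binds, in capitals, just after the start (chr10:88826765-88827064, minus strand, RefSeq GRCm38.p6).
Utp20: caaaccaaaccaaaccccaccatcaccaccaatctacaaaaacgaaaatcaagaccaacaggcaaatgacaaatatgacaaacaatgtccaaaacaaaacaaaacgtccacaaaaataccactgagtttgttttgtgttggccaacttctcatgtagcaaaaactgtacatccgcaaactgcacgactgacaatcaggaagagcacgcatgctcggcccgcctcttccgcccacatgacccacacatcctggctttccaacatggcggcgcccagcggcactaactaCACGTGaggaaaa
Utp20 averaged 209 CPM in IL-25, 49.7 CPM in ADM2 and 120 CPM in vehicle libraries. The E-box was in 5 of the 31 windows of the MYC and ribosome biogenesis list (16.1%), in 17.5% of windows of genes called at least 2-fold higher in IL-25 and in 6.69% of those called at least 2-fold lower, against 9.50% of all windows. These shares are a description, with no test.

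Synthesis of nucleotides and one-carbon units followed the same order. Of 27 tested members 23 were higher and none lower in IL-25 than in ADM2 libraries (85.2% called), with a median log2 fold change of 1.27. Shmt1, the cytosolic serine hydroxymethyltransferase that charges folate with one-carbon units, had 48.2, 47.5 and 47.6 CPM in IL-25 libraries, 4.56, 4.07 and 3.77 CPM in ADM2 libraries and 17.9, 17.0 and 18.6 CPM in vehicle libraries. The 3 groups stood clear of one another with vehicle in the middle, and the difference was 11.6-fold (log2 fold change 3.53 ± 0.14 SE, edgeR adjusted p = 2.47e-10). The folate carrier Slc19a1 averaged 99.1 CPM in IL-25, 14.8 CPM in ADM2 and 55.0 CPM in vehicle libraries, and Ctps, which makes CTP, 140, 29.0 and 53.3 CPM. Psph, Gmps and Prps2 were among those that did not pass the test. Among amino acid transporters and tRNA synthetases, 20 of 26 were higher and 1 lower (80.8% called), with a median of 0.92. The leucine transporter Slc7a5 averaged 630 CPM in IL-25, 192 CPM in ADM2 and 318 CPM in vehicle libraries, and the arginine and lysine transporter Slc7a1 402, 129 and 238 CPM. For the valine tRNA synthetase Vars the IL-25 mean of 335 CPM lay near the vehicle mean of 327 CPM and the ADM2 mean was 131 CPM. The 1 member lower in IL-25 was the neutral amino acid transporter Slc43a2, at 10.9 CPM in IL-25, 20.3 CPM in ADM2 and 24.8 CPM in vehicle libraries.

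**Figure D4:**
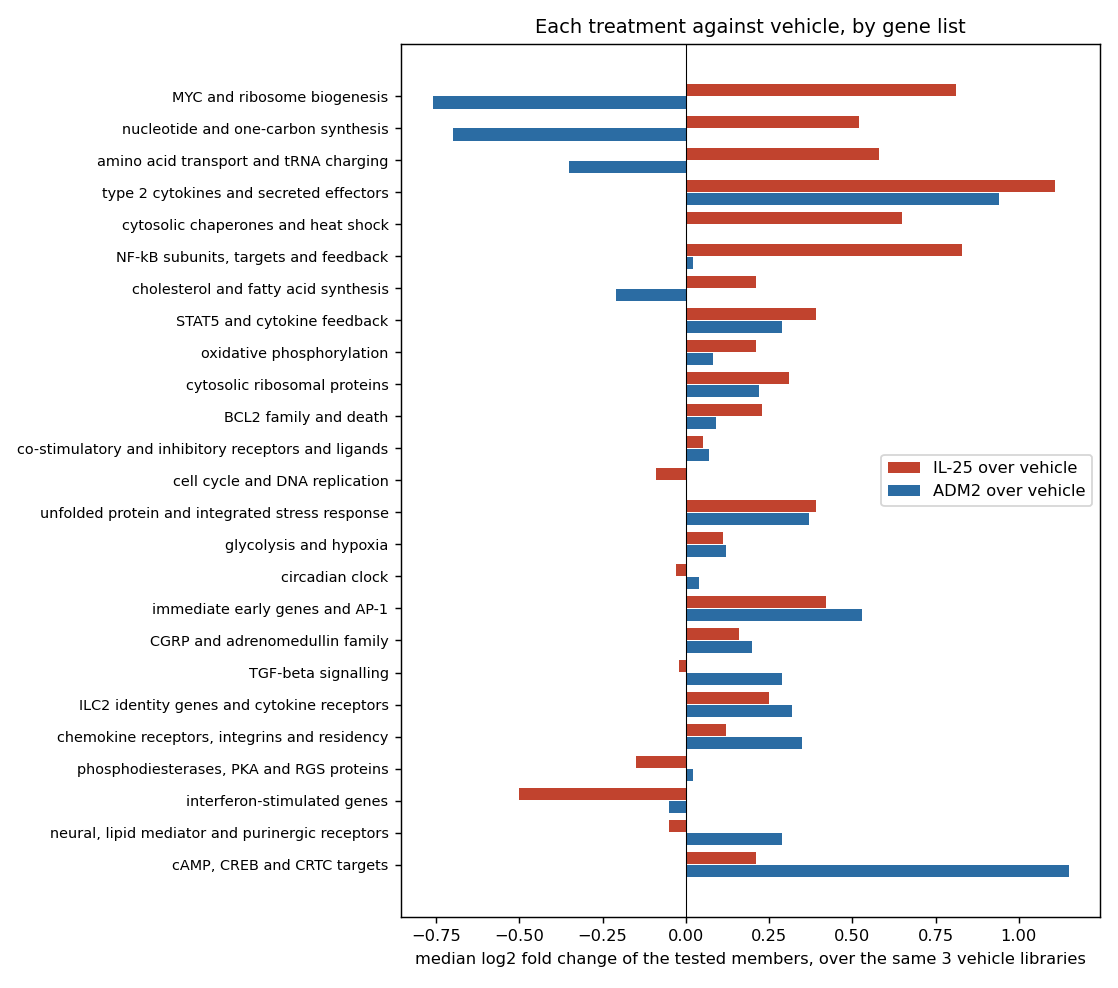
Median log2 fold change of the tested members of each list (horizontal axis), 1 row per list, with 1 bar for IL-25 over vehicle and 1 for ADM2 over vehicle, both from the same 3 vehicle libraries. The bars of MYC and ribosome biogenesis point in opposite directions, at 0.81 for IL-25 and −0.76 for ADM2, and those of the cAMP targets stand at 0.21 for IL-25 and 1.15 for ADM2.

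Chaperones and heat shock proteins, a list of cytosolic members and the mitochondrial Hspd1, Hspe1 and Hspa9, were higher in IL-25 for 14 of 22 tested members and lower for 2. The share called was 72.7%, and the median log2 fold change 0.70. The chaperonin Hspd1 averaged 532 CPM in IL-25, 170 CPM in ADM2 and 294 CPM in vehicle libraries, and the co-chaperone Dnajb4 was lower, at 16.8, 38.2 and 19.3 CPM. In cholesterol and fatty acid synthesis 16 of 27 members were higher and 1 lower (63% called), with a median of 0.38. Without ADM2 replicate 1 or 2, or without IL-25 replicate 1, 2 members were lower. The isoprenoid enzyme Idi1 and the sterol enzyme Sqle were higher, with log2 fold changes of 1.13 and 1.11. The final step of triglyceride synthesis split between its 2 enzymes. Dgat2 averaged 254 CPM in IL-25, 51.5 CPM in ADM2 and 42.3 CPM in vehicle libraries, and Dgat1, the 1 member of the list called lower, 366, 1015 and 364 CPM.

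Glycolysis and hypoxia genes, with 3 of 26 higher and 7 lower, differed less, and their median was −0.15. The share called, 38.5%, lay near the 31.2% of all genes. Egln3, an oxygen sensor that marks hypoxia-inducible factor for degradation, stood apart, with 135, 136 and 144 CPM in IL-25 libraries, 664, 646 and 629 CPM in ADM2 libraries and a mean of 152 CPM in vehicle libraries. The ADM2 libraries stood far above the others, and Egln3 was 4.67-fold lower in IL-25 (log2 fold change −2.22 ± 0.08 SE, edgeR adjusted p = 1.54e-10). Hif1a itself averaged 876 CPM in IL-25, 1343 CPM in ADM2 and 621 CPM in vehicle libraries, while the lactate dehydrogenase Ldha, at 1467, 1458 and 1138 CPM, did not pass the test. Among genes of the stress responses to unfolded protein and to amino acid shortage, 5 of 26 were higher and 10 lower (57.7% called). Those higher included the glutathione-degrading enzyme Chac1 and the asparagine synthetase Asns, targets of ATF4, with log2 fold changes of 1.31 and 1.13. Those lower included the sensor Ern1 and the transcription factor Xbp1 that it activates, with −0.81 and −0.50. Without ADM2 replicate 1, and with upper-quartile scaling, 3 members of this list were called higher in place of 5. In oxidative phosphorylation 5 of 26 were higher and none lower, with a median of 0.15, a share called of 19.2% that lay below that of all genes. Cytochrome c (Cycs) led those higher, at 162 CPM in IL-25 and 104 CPM in ADM2 libraries.

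Genes of STAT5 signalling and cytokine feedback were split, with 9 of 23 higher and 5 lower in IL-25 (60.9% called) and a median of 0.16. Stat5a, a transcription factor activated by IL-2 and IL-7, had 547, 812 and 815 CPM in IL-25 libraries, 102, 100 and 101 CPM in ADM2 libraries and a mean of 184 CPM in vehicle libraries. The lowest IL-25 library was far above the rest, and the difference was 7.17-fold (log2 fold change 2.84 ± 0.14 SE). Its paralog Stat5b averaged 355 CPM in IL-25, 145 CPM in ADM2 and 186 CPM in vehicle libraries, and the kinase Pim2 766, 169 and 340 CPM. The feedback inhibitors Socs2 and Socs1 were lower, with log2 fold changes of −1.16 and −0.76, as was the cytotoxic granule protease Gzmb with −0.60. Among immediate early genes and AP-1 factors 8 of 28 were higher and 12 lower (71.4% called), with a median of −0.25. Batf, an AP-1 partner in cytokine-producing lymphocytes, had 694, 569 and 754 CPM in IL-25 libraries, 174, 137 and 156 CPM in ADM2 libraries and a mean of 222 CPM in vehicle libraries, a 4.32-fold difference. The MAP kinase phosphatases Dusp5, Dusp6 and Dusp10 were lower in IL-25, with log2 fold changes of −1.53, −1.65 and −1.72. Dusp10 averaged 29.7 CPM in IL-25, 97.7 CPM in ADM2 and 29.1 CPM in vehicle libraries, and Dusp6 46.2, 145 and 113 CPM. Without ADM2 replicate 1, 5 members of this list were called higher in place of 8.

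Of 27 tested ILC2 identity genes and cytokine receptors, 6 were higher and 14 lower in IL-25 (74.1% called), with a median of −0.34. Il2ra, the high-affinity IL-2 receptor chain, had 3537, 5639 and 4921 CPM in IL-25 libraries, 953, 945 and 1165 CPM in ADM2 libraries and a mean of 1891 CPM in vehicle libraries, while the shared beta chain Il2rb averaged 934 CPM in IL-25, 1683 CPM in ADM2 and 745 CPM in vehicle libraries. These 2 chains of the same receptor therefore differed in opposite directions, by log2 fold changes of 2.20 and −0.85. Its gamma chain Il2rg averaged 663 CPM in IL-25, 599 CPM in ADM2 and 557 CPM in vehicle libraries and did not pass the test (log2 fold change 0.15). The transcriptional repressor Gfi1 averaged 96.2 CPM in IL-25, 30.2 CPM in ADM2 and 59.2 CPM in vehicle libraries. Il1rl1, the IL-33 receptor, was lower, at 635, 874 and 438 CPM, with a log2 fold change of −0.46. Hhex had 1.60, 3.21 and 2.35 CPM in IL-25 libraries, 16.8, 21.4 and 30.5 CPM in ADM2 libraries and a mean of 3.00 CPM in vehicle libraries. Gata3, the master regulator of ILC2s, had 710, 1141 and 1006 CPM in IL-25 libraries, 1192, 1223 and 1240 CPM in ADM2 libraries and a mean of 936 CPM in vehicle libraries. Its log2 fold change was −0.36, and its call (edgeR adjusted p = 0.0435) was lost in 10 of 20 alternative settings, at adjusted p of up to 0.105.

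Among co-stimulatory and inhibitory receptors and ligands 4 of 24 were higher and 5 lower, with a median of 0.03, a share called of 37.5% that lay near the 31.2% of all genes. The ligand Tnfsf4 (OX40L), by which ILC2s support T cells, had 67.2, 52.3 and 53.6 CPM in IL-25 libraries, 11.4, 9.07 and 9.86 CPM in ADM2 libraries and a mean of 21.8 CPM in vehicle libraries. IL-25 exceeded ADM2 5.70-fold (log2 fold change 2.51 ± 0.15 SE). The inhibitory receptor Pdcd1 (PD-1) had 96.9, 108 and 106 CPM in IL-25 libraries, 384, 373 and 382 CPM in ADM2 libraries and 127, 119 and 105 CPM in vehicle libraries. The ADM2 libraries alone stood apart, and Pdcd1 was 3.67-fold lower in IL-25. Tnfrsf18 (GITR), Cd28 and the inhibitory receptor Cd200r1 were lower too, with log2 fold changes of −1.24, −0.95 and −1.14. Among chemokine receptors, integrins and residency genes 4 of 27 were higher and 11 lower (55.6% called), with a median of −0.47. Cd44, the hyaluronan receptor, had 2882, 2889 and 2980 CPM in IL-25 libraries and 896, 944 and 958 CPM in ADM2 libraries, and the chemokine receptor Ccr4 averaged 904 CPM in IL-25, 409 CPM in ADM2 and 298 CPM in vehicle libraries. Ccr8 was lower in IL-25, at 104, 226 and 95.6 CPM, as were Cxcr6, at 716, 1248 and 896 CPM, and the integrin Itgb3, at 317, 731 and 544 CPM.

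**Figure D5:**
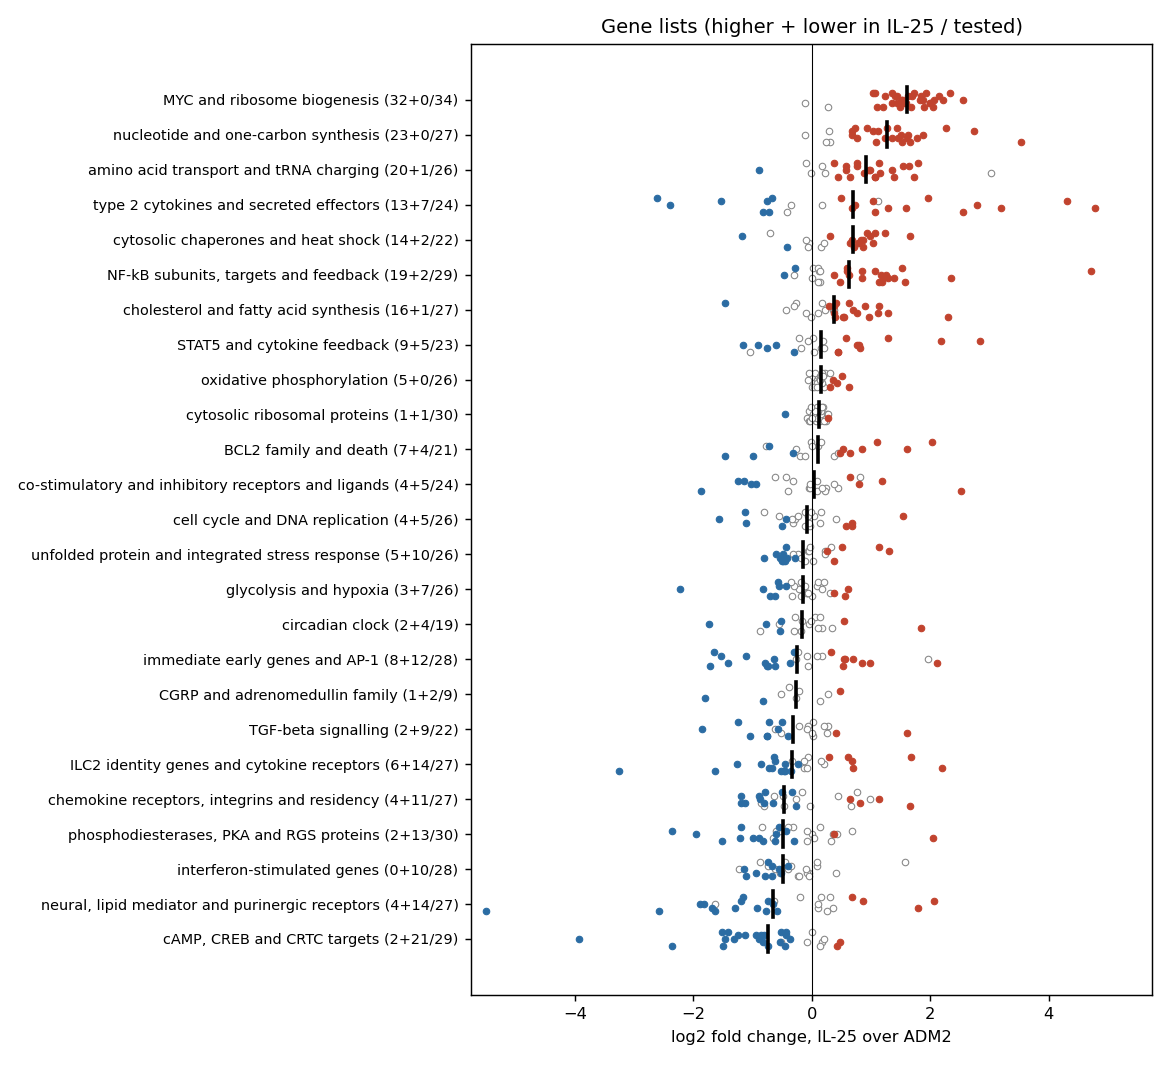
Log2 fold change of IL-25 over ADM2 for every tested member of each list (points, open where not called and coloured by direction where called) with the list's median as a bar, 1 row per list; Drd1, with no count in any IL-25 library, is drawn at the left edge. Medians run from 1.60 for MYC and ribosome biogenesis to −0.74 for cAMP targets, and ribosomal proteins and oxidative phosphorylation lie close to zero, with medians of 0.12 and 0.15.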

How the data were processed

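RNA-seq of sorted mouse large-intestinal ILC2s was analysed from the table of raw gene counts that the authors deposited. The submitters' processing notes name featureCounts, limma and the mm10 build. Not given in the sources used here are the aligner, the annotation and how strand was used. Libraries were assigned to groups by their labels. Counts without a gene symbol took 1.16% to 2.68% of each library. Gene symbols came from a RefSeq table of GRCm38.p6 (25275 IDs matched, 1904 did not, 408 of them among the tested IDs).

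Genes were kept by filterByExpr with a minimum count of 10. edgeR 4.0.16 (R 4.3.3) fitted 1 mean per group over all 11 libraries with TMM scaling, and IL-25 over ADM2 was tested with the quasi-likelihood F test and Benjamini-Hochberg adjustment over all tested genes, at a threshold of 0.05. Standard errors are approximate (the size of the log2 fold change over the root of its F value), and the 95% intervals follow from them. CPM used library sizes times TMM factors. The biological coefficient of variation had a common value of 0.282 and a median by gene of 0.176. The code was tested on simulated data. The gene lists and the comparison were chosen with earlier results of these data known. Named genes are the 15 largest called differences in each direction with non-overlapping groups and an average of at least 2 log2 CPM, up to 4 per list and direction, a short list of genes always named, and list genes whose 95% interval lay within 1.5-fold. Some genes are not reported here. Promoter windows are RefSeq's for GRCm38.p6, found for 11253 of the 15028 tested genes and 282 of the 363 named ones, and were searched for exact motif letters on both strands. Alternatives were other scalings, no filter or a minimum count of 30, a fit of the 6 compared libraries alone, limma 3.58.1 voom with and without quality weights, DESeq2 1.42.0, a replicate block and leaving out each of the 11 libraries in turn.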

Additional observations from a re-analysis of the deposited data

How the results depend on the processing

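Between 3908 genes (without ADM2 replicate 3) and 5161 (DESeq2) differed between IL-25 and ADM2 over the 20 alternatives, against 4687. Leaving out 1 library gave 3908 to 4750 genes called, 2081 to 2473 higher, 1827 to 2277 lower and 1468 to 1650 called at least 2-fold. Genes called in both the main setting and an alternative had the same direction in each of the alternatives run. With upper-quartile scaling, 2044 were higher and 2766 lower, a share of 42.5% higher in place of 51.7%, and the median of all genes shifted by −0.08. Replicates of the same number did not deviate together (correlations of −0.0133, −0.0126 and 0.00944), and with a replicate block 4309 genes were called, 2219 higher and 2090 lower, 4258 of them shared with the main call set. Of the 363 named genes 196 were called; 28 of these lost the call in at least 1 alternative, 24 of the other 167 gained one, and 0 reversed. Beside the list counts given above, those that moved by over 1.5 times with another method were small: glycolysis higher was 5 (main 3) with quality weights, cholesterol lower 3 (main 1) with upper-quartile scaling and 2 with quality weights or DESeq2, phosphodiesterases higher 1 (main 2) with upper-quartile scaling, and TGF-beta higher 1 (main 2) without a filter, with 6 libraries or with voom and 4 with quality weights. With 3 libraries a group, small differences at low counts are not resolved. The standard error on the log2 scale had a median of 0.19 over all tested genes and differed by gene. It was 0.28 for Hhex, a gene of low level, and 0.09 for Myc.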

Other observations

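Some members of 5 further lists differed between IL-25 and ADM2. The share of members called was 52.4% in the BCL2 family and death list and 50% in TGF-beta signalling. It lay near the 31.2% of all genes for interferon-stimulated genes (35.7%), the cell cycle (34.6%) and the circadian clock (31.6%). The share called therefore does not set these last 3 lists apart, and the directions are given below. In the BCL2 family and death list 7 of 21 tested members were higher and 4 lower in IL-25. The pro-apoptotic gene Bid averaged 23.6 CPM in IL-25, 5.80 CPM in ADM2 and 17.4 CPM in vehicle libraries, and the death receptor Fas 56.4, 18.6 and 29.2 CPM, with log2 fold changes of 2.03 and 1.60. The anti-apoptotic gene Bcl2 was lower, at 49.4, 98.7 and 127 CPM, so for Bcl2 it was the IL-25 mean that lay farther from vehicle. Without ADM2 replicate 1 or 3, 2 members of this list were called lower in place of 4. Among interferon-stimulated genes none of 28 was higher and 10 were lower, with a median of −0.49, and leaving out 1 library brought the lower count to 4 (without ADM2 replicate 1 or IL-25 replicate 3) or 5 (without IL-25 replicate 1, when 1 member was higher). Against vehicle, none of these genes was higher and 9 were lower under IL-25, and 1 was higher and 1 lower under ADM2. The RNA sensor Ifih1 averaged 22.5 CPM in IL-25, 49.5 CPM in ADM2 and 33.0 CPM in vehicle libraries. The guanylate-binding protein Gbp7 averaged 42.1, 81.5 and 104 CPM.

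In the cell cycle list 4 of 26 members were higher and 5 lower. Of the D-type cyclins, Ccnd2 was higher in IL-25, and Ccnd1 and Ccnd3 were lower. Ccnd1 averaged 4.52 CPM in IL-25, 9.89 CPM in ADM2 and 4.67 CPM in vehicle libraries, with a log2 fold change of −1.12. Ccnd2 averaged 716 CPM in IL-25, 446 CPM in ADM2 and 462 CPM in vehicle libraries, while Ccnd3 averaged 51.8, 112 and 92.3 CPM, with log2 fold changes of 0.68 and −1.11. The proliferation marker Mki67, at 35.7, 37.5 and 37.4 CPM, did not pass the test. Of 19 clock genes 2 were higher and 4 lower, and 2 were lower without ADM2 replicate 3. The clock output factor Hlf had 139, 178 and 159 CPM in IL-25 libraries, 476, 571 and 541 CPM in ADM2 libraries and 397, 381 and 387 CPM in vehicle libraries, without overlap, and its log2 fold change was −1.73. In TGF-beta signalling 2 of 22 members were higher and 9 lower, with a median of −0.31, and 1 was higher without IL-25 replicate 2. The activin receptor Acvr2a, the repressor Ski and the signal transducer Smad3 were lower in IL-25, with log2 fold changes of −1.24, −0.76 and −0.57.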
